A study of Mus musculus with 12 samples.

Results

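Chromatin accessibility was followed at 8 germline genes of the piRNA pathway and its surroundings: Piwil2, Piwil4, Mael, Ddx4, Dazl, Tdrd1, Asz1 and Sycp3. They are 8 of the 21938 protein-coding genes of the annotation (GENCODE M21, build GRCm38), and they were chosen by name. Each gene was studied over its body and 20 kb on each side, which gave 643 kb in all and held 99 of the 273256 intervals formed by merging the peaks of all groups. The cells were mouse embryonic fibroblasts (MEFs) of strain 129, from E12.5 embryos and at passage 2. Per the study's methods they came from chimeras made with 1 embryonic stem cell line that carries Cas9 at Rosa26 and a cassette by which doxycycline switches on Myc, Klf4, Oct4 and Sox2 (MKOS) with an mOrange reporter; the labels give the control cells as wild type. All of them were transduced with lentiviral guide RNA, either non-targeting (control) or against Zfp266 (KO), and were harvested after 96 hours. The MEF control and MEF KO groups received no doxycycline, and the reprogramming control and reprogramming KO groups were kept for the last 72 hours in medium with vitamin C (10 µg/ml) and doxycycline (300 ng/ml). Each group had 3 Omni-ATAC-seq libraries of 50000 cells, so the KO groups are pools of edited cells and not a clone. That medium was ESC medium, with LIF and without the FGF2 and heparin of the MEF medium. Per the study's methods the reprogramming cells were also seeded as a small minority among wild-type MEFs, whereas the MEF groups were grown without them. All cells were sorted, the reprogramming cells for mOrange. Induction, medium, seeding and sort cannot be told apart in a comparison of MEF and reprogramming groups. No source says that replicates of a group came from separate embryos, so their spread may be partly technical.

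In ATAC-seq a transposase cuts accessible DNA, and a peak marks a stretch that is cut more often than its surroundings. The piRNA pathway protects the germline genome from transposons: PIWI proteins carry small RNAs that match transposon transcripts, and proteins with Tudor domains gather the PIWI proteins in granules of the germ cell cytoplasm. In somatic cells the promoters of many of these genes are closed and carry DNA methylation. PIWIL2 and PIWIL4 are PIWI proteins themselves, MAEL, DDX4, TDRD1 and ASZ1 act in the granules where piRNAs are made, DAZL is an RNA-binding protein of germ cells, and SYCP3 is a component of the synaptonemal complex, which holds paired chromosomes together in meiosis.

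The sequences printed here are those that carry the findings at the gene starts and in the introns. The first 3 are promoter windows from RefSeq (GRCm38), 250 bases before to 50 after the start on the strand of the gene, with CG dinucleotides in capitals. Sycp3 (chr10:88459337-88459636) had a peak over its start in reprogramming, and Ddx4 (chr13:112652261-112652560) and Mael (chr1:166238695-166238994) had none in any group.
Sycp3 promoter: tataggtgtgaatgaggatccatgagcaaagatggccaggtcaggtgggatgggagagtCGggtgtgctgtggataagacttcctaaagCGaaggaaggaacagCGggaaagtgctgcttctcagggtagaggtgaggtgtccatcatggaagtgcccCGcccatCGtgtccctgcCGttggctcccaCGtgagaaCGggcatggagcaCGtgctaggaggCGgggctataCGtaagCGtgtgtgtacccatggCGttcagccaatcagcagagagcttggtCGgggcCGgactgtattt
Ddx4 promoter: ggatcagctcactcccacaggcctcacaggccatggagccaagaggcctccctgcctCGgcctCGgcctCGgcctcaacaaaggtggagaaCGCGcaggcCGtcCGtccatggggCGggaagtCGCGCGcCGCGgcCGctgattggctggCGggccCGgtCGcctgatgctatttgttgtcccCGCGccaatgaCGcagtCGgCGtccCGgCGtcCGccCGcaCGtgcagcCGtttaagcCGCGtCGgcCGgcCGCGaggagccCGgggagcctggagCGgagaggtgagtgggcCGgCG
Mael promoter: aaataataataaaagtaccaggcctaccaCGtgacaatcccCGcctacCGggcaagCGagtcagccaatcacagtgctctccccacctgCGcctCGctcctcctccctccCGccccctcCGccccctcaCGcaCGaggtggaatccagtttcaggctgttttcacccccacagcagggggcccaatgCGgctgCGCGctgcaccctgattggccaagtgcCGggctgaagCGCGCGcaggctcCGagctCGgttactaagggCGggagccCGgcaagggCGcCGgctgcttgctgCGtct
The last 2 are the centres of the intronic intervals with the highest folds among those with a peak in the reprogramming groups only (Ddx4, chr13:112645594-112645893; Asz1, chr6:18100298-18100597; minus strand), with the SOX-type word CCATTGT and the KLF-type word GGGNGNGG in capitals, on either strand; neither holds the OCT-type word ATTTGCAT.
Ddx4 intron: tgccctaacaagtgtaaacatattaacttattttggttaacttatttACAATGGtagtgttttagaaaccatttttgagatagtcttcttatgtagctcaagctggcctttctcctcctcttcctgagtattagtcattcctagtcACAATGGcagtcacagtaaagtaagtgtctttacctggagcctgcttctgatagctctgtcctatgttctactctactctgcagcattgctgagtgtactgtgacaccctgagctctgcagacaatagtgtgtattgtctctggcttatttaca
Asz1 intron: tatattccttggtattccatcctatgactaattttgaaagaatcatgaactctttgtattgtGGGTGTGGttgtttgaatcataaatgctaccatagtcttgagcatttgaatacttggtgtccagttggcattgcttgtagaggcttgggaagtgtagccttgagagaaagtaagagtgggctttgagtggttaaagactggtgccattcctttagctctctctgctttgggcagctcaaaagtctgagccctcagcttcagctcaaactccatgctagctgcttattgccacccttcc

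None of the 8 genes had a peak over its annotated start in MEFs, and 2 of them, Piwil2 and Sycp3, had one in reprogramming, in control and in KO. The values of peaks are folds over background from 1 merged peak list per group, so they have no replicate error and no test. At Piwil2 the fold was 2.66 in reprogramming control and 3.73 with the KO, with a -log10 q of 9.89 and 31.1. At Sycp3 it was 2.05 in reprogramming control and 2.11 with the KO, with a -log10 q of 2.60 and 2.72. The Sycp3 peaks were short and weak: they were 260 and 229 bases long, and only 3.68% and 4.45% of all start site peaks of these groups had a lower fold. The Piwil2 peaks were 1185 and 1308 bases long, and 14.2% and 45.3% of start site peaks had a lower fold. In these pools of cells, fewer open cells and less opening per cell cannot be told apart.

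The remaining 6 genes, 75% of the set, had no start peak in any group, which was so for 32.2% of all protein-coding genes. A start peak in both reprogramming groups and in neither MEF group was found for 2 of 8 members (25.0%) and for 2.63% of all protein-coding genes. With a -log10 q of at least 5 only Piwil2 remained, and with the start of any transcript, or a distance of 1000 bases, 2 or 3 members had a start peak in each MEF group (Dazl, Piwil4 and, in MEF KO within 1000 bases, Sycp3). Start peaks were about as frequent in each group over all protein-coding genes, at 63.5% for either MEF group, 63.0% for reprogramming control and 62.6% for its KO. With 8 genes chosen by name these shares are a description. Zfp266 itself had a start peak in every group, with folds of 5.46, 5.08, 5.03 and 4.52 in the order MEF control, MEF KO, reprogramming control, reprogramming KO; accessibility of a start does not check an edit made by Cas9.

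The starts without a peak held many CG dinucleotides. RefSeq promoter windows matched 7 of the 8 genes; Piwil2 was not in the table. Taking for each gene the window nearest to its annotated start, 0 to 165 bases off, Ddx4 held 38 CG, Dazl 28, Mael 24, Tdrd1 20, Asz1 17, Sycp3 15 and Piwil4 11. Ddx4 thus had more CG than 95.0% of the 32851 promoter windows in the table, and Piwil4 more than 58.6%. Most promoters of that kind were open: of the 13594 windows with at least 11 CG, 94.0% and 94.1% had a peak over the start in the MEF groups (control and KO), and 93.1% and 92.7% had it during reprogramming. Of the 7 members, 0 had such a peak in either MEF group and 1, Sycp3, had it in both reprogramming groups. DNA methylation was not measured in these libraries.

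**Figure D1:**
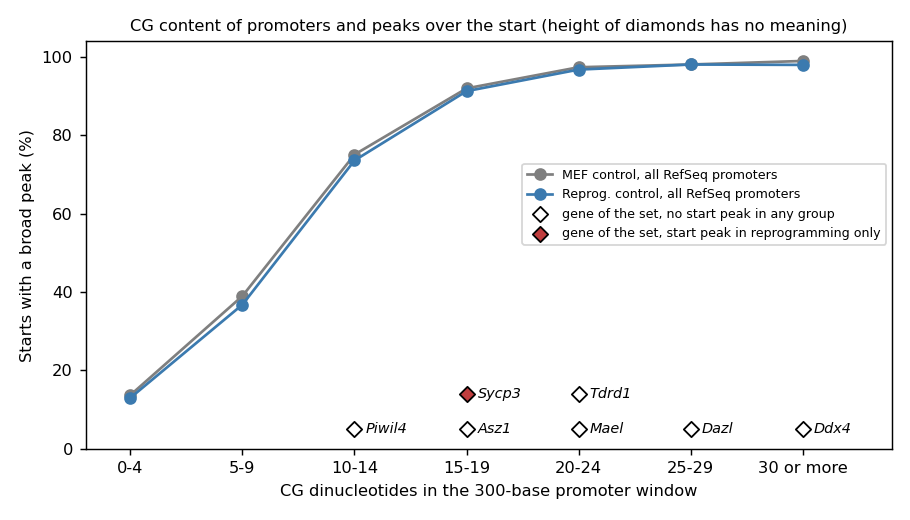
Share of starts with a broad peak (%, vertical axis) against the number of CG dinucleotides in the 300-base RefSeq promoter window (horizontal axis, in classes), for all promoters in MEF control and reprogramming control (lines). Diamonds place the 7 matched germline genes in their class, and their height has no meaning; the lines pass 90% from 15 CG on, yet of the diamonds there and below only Sycp3 is filled, for a start peak in the reprogramming groups.

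Some words known as binding sites of regulators of germline genes were counted in the same windows, on both strands. TCCCGC, an E2F6-type word, was found in Mael, Ddx4 and Sycp3, 3 of 7, and in 20% of all promoter windows. CACGTG, the E-box, was found in Mael, Ddx4, Tdrd1 and Sycp3, 4 of 7, and in 7.15% of all windows. Sycp3 held 2 E-boxes and Mael 2 E2F6-type words. The windows of Dazl, Asz1 and Piwil4 held neither word. Both words contain a CG, and each of the 7 windows holds more CG than the median promoter window (7 CG). The shares over all windows are not matched for CG content, so they are a description. A match of letters is not a measured site.

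The Piwil2 interval was the only interval at these loci listed as more open in KO by the authors' test in reprogramming. The interval (chr14:70428951-70430258, 1308 bp) spans the start at 70429383. Its normalised read counts were 134, 120 and 154 in the reprogramming control libraries. In the reprogramming KO libraries they were 303, 288 and 314. Every KO library was above every control library, and the groups did not overlap. The means were 136 ± 17.2 in control and 302 ± 13.3 in KO (SD, n = 3 each), a ratio of 2.22. The log2 fold change was 1.16 (SE 0.10), with an adjusted p of 9.07e-23 by edgeR's quasi-likelihood test. The tables list only intervals that passed the authors' threshold on these libraries, and the study picked Piwil2 out of that list for its reporters, so this p is not independent evidence. Scaled by TMM over the listed intervals, the log2 fold change was 0.19 and the call was lost (adjusted p = 1.00 by edgeR), and scaled by their raw totals it was 0.45 (adjusted p = 0.00416).

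Of all 273256 merged intervals, 0.557% were listed as more open and 0.0315% as more closed in reprogramming KO, against 1 and 1 of 99 at these genes. An interval listed as more open lay within 20 kb of 1 member of 8 and of 8.14% of all protein-coding genes, and one listed as more closed within 20 kb of 1 member and of 0.369% of all. In MEFs 0 of the 99 intervals were listed in either direction, where 0.175% of all intervals were listed as more open and 0.000366% as more closed. At these shares fewer than 1 listed interval would fall among 99, so the absence in MEFs is no result about these genes.

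The interval of the Mael window was listed as more closed in KO. Mael, which takes part in transposon silencing and piRNA production, is not the nearest gene. The interval (chr1:166248493-166250397, 1905 bp) has its midpoint 10698 bp upstream of the Mael start and ends 3742 bp from the start of Ildr2. Its normalised counts were 146, 152 and 159 in reprogramming control. They were 101, 86.1 and 87.3 in reprogramming KO. All KO libraries lay below all control libraries. The means were 153 ± 6.44 and 91.4 ± 8.06 (SD, n = 3 each), a ratio of 0.598. The log2 fold change was -0.72 (SE 0.13), with an adjusted p of 1.46e-05 by edgeR's quasi-likelihood test, under the same limit of selection. It was -1.69 when scaled by TMM over the listed intervals and -1.43 when scaled by their raw totals. Peaks stood there in the reprogramming groups only, with a fold of 2.63 in control and 2.19 in KO.

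Both listed intervals were low in MEFs. The tables give the mean over all 12 libraries, so the mean of the 6 MEF libraries follows by subtraction, without a spread. It was 17.9 normalised counts at the Piwil2 interval, below the reprogramming control mean by a ratio of 7.58 and below the reprogramming KO mean by 16.8. It was 12.7 at the interval of the Mael window, with ratios of 12 and 7.19. At Piwil2 the KO thus lay further from the MEF level than the control did, and at the Mael window it lay nearer to it.

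**Figure D2:**
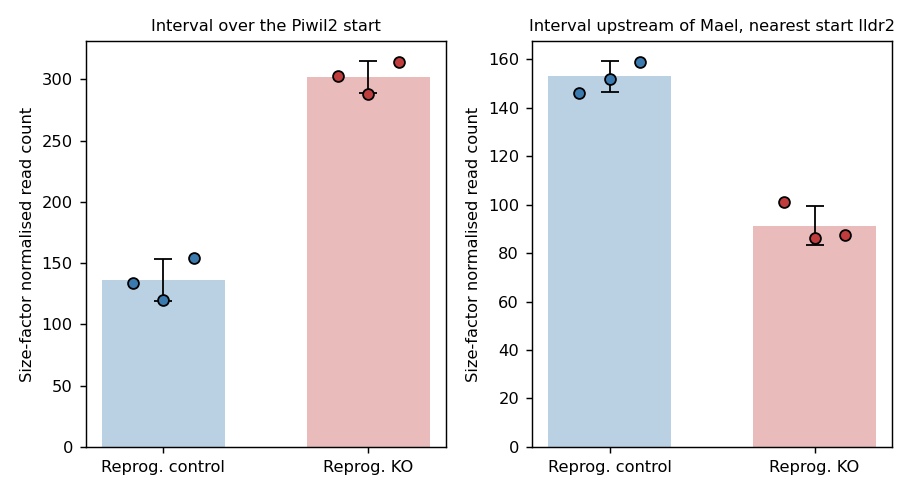
Size-factor normalised read counts (vertical axis, from 0) of the 6 reprogramming libraries at the interval over the Piwil2 start and at the interval upstream of Mael. Points are libraries, bars are means and error bars are SD (n = 3); at Piwil2 the KO points (288 to 314) sit above the control points (120 to 154), and at Mael the KO points (86.1 to 101) sit below the control points (146 to 159).

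B1 is a short interspersed nuclear element (SINE) of rodents. A B1-type stretch was defined by short words: at least 3 of 7 different B1 words on 1 strand within 150 bases of repeat-masked sequence. Of all merged intervals 3.34% held such a stretch. Among intervals listed as more open in reprogramming KO the share was 52.2%, and among the 86 listed as more closed it was 0%. The search asks for exact words and misses diverged copies.

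In the 99 intervals of the 8 genes there were 4 B1-type stretches (4.04%). Away from the starts they lay in a Piwil2 intron (chr14:70414527-70415180), upstream of Sycp3 (chr10:88451061-88452671) and downstream of Sycp3 (chr10:88482964-88483679). The intronic Piwil2 interval had a peak in reprogramming control and KO only, with folds of 2.90 and 3.27. The downstream Sycp3 interval had a peak in reprogramming KO only, with a fold of 2.63, and held 5 B1 words. The upstream Sycp3 interval had peaks in all groups, with folds of 4.75 and 4.64 in MEFs and of 2.23 and 2.86 in reprogramming (control and KO). None of these 3 was listed as differing between KO and control.

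Of the protein-coding starts, 38 lay in an interval listed as more open in reprogramming KO, and Piwil2 had rank 4 among them by the ratio of KO to control, of which the median was 1.33. Over all intervals listed as more open the median ratio was 2.05, and 56.5% had a smaller ratio than Piwil2. Of these 38 starts, 9 had no peak in either MEF group and 23 lay in an interval with a B1-type stretch. The 5 of the 37 other starts most like Piwil2, by the distance over log2 mean counts in control, KO and MEFs, were those of Gm20537 (distance 0.798), Snx20 (1.09), Ash2l (2.13), Mgat4e (2.66) and Slc25a34 (2.85). The Gm20537 interval went from 204 to 298 normalised counts with 26.7 in MEFs, and the Snx20 interval from 181 to 506 with 29.6 in MEFs. Snx20, Ash2l and Slc25a34 were without a B1-type stretch by this search. The paper reports a B1 SINE in the Snx20 region that it cloned, so the search may have missed a copy there.

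Around the starts, the 8 loci lost more peaks than they gained between MEFs and reprogramming. The MEF groups had 65 (control) and 61 (KO) peaks there, and the reprogramming groups had 49 and 46. Of the 91 intervals with a peak in either control group, 42 (46.2%) had one in MEFs only and 25 (27.5%) in reprogramming only, where the shares over all intervals were 34.6% and 36.2%. In the KO groups the counts were 41 (47.1%) and 25 (28.7%) of 87, against 35.0% and 35.4%. Of the 99 intervals, 34 (34.3%) had peaks in both MEF groups only, 19 (19.2%) in both reprogramming groups only and 19 (19.2%) in all 4 groups, against 27.5%, 27.4% and 24.7% of all merged intervals. Of the 19 present in all groups, 8 lay over the start of a neighbouring gene, such as Polr3d beside Piwil2, Fut4 beside Piwil4, Slc38a9 beside Ddx4 and Wnt2 beside Asz1. Median folds of the peaks, 3.08, 3.12, 2.82 and 2.84 in the order above, were near those of all peaks (3.12, 3.09, 2.91 and 2.92).

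**Figure D3:**
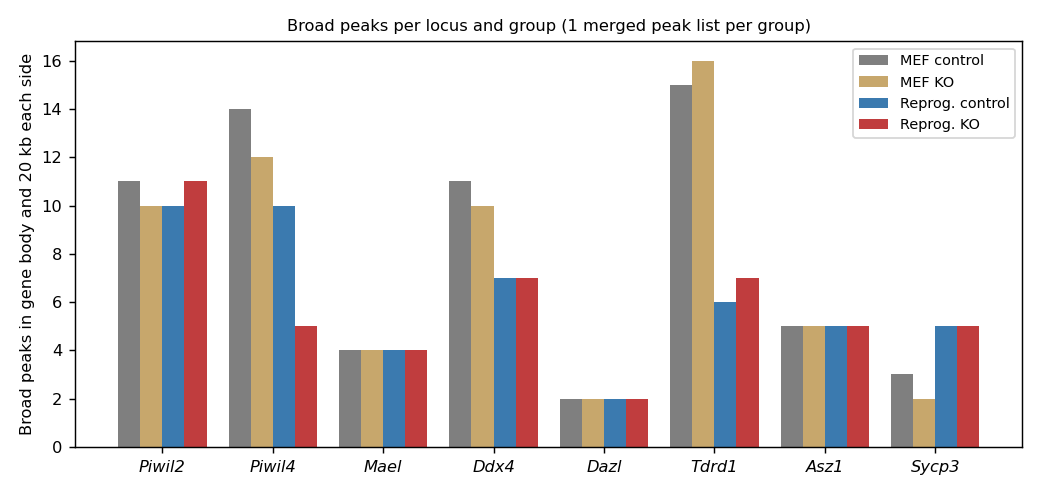
Number of broad peaks (vertical axis) in the body of each gene and 20 kb on each side, for the 4 groups (bars; 1 merged peak list per group, so no error bars). The bars fall from MEF to reprogramming at Tdrd1 (15 and 16 to 6 and 7), Ddx4 and Piwil4, stay level at Mael, Dazl and Asz1, and rise at Sycp3.

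The PIWI genes differed from each other. At Piwil2 the number of peaks was 11 and 10 in MEFs and 10 and 11 in reprogramming (control and KO), but the places changed: 6 intervals had peaks in both MEF groups only and 5 in both reprogramming groups only. One of the latter was the start, 2 lay upstream, at 6059 and 8692 bp, with folds of 2.73 and 1.68 in control and 2.53 and 1.83 in KO, 1 was the intronic B1-type interval, and 1 lay downstream of the gene with folds of 3.78 and 4.38. The nearest peak to the start in MEFs was 2353 bp away, with a fold of 2.46 in control and 2.32 in KO.

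At Piwil4, whose product works in the nucleus of fetal male germ cells, the counts were 14, 12, 10 and 5. It held 5 of the 9 intervals with a peak in reprogramming control and none in KO (16.4% of 55 at the 8 loci, against 11.0% of all intervals). Their folds in control were 2.36, 2.31, 1.96, 1.91 and 1.55, all under the median fold of that list. In the same order their -log10 q was 4.57, 4.22, 2.15, 1.87 and 1.41, so all fell away at a -log10 q of at least 5. No Piwil4 interval was listed in the count tables. A peak 877 bp from the start in MEF control (fold 1.88) and 946 bp in MEF KO (fold 2.59) was the nearest there, and in reprogramming the nearest was 4985 bp away in control and 10515 bp in KO. The strongest Piwil4 peak in MEFs lay in an intron, 41964 bp into the gene, with a fold of 8.03 in control and 7.25 in KO; in reprogramming it had 4.36 and 4.53, below the 5.32 and 5.24 of an interval downstream of the gene.

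At Ddx4, which encodes the VASA helicase, the interval 6732 bp into the gene had no peak in MEFs and a fold of 6.84 in reprogramming control and 6.38 in KO. These folds lay above those of 97.9% and 96.7% of all peaks of their groups. Its printed centre holds 2 matches to the SOX-type word, which 5.62% of interval centres hold at least once. A second intronic interval, 9940 bp into Ddx4, had folds of 2.67 and 2.43 in reprogramming only, and 8 Ddx4 intervals had peaks in both MEF groups only. The interval 58304 bp past the start, with folds of 2.78 and 2.44 in reprogramming, lies over the start of Il31ra and over a processed pseudogene, Gm3226, so its reads may belong to another copy.

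At Asz1, which encodes a protein of the granules at mitochondria, the nearest peak to the start was 21435 bp away in MEF control and 21420 bp in MEF KO. In reprogramming it was 8234 bp away in control and 8229 bp in KO, inside the first part of the gene. That interval had a fold of 6.12 in reprogramming control and 6.05 in reprogramming KO, and another, 17893 bp into the gene, had 5.25 and 4.57. The printed centre, that of the interval with folds of 6.12 and 6.05, holds 1 match to the KLF-type word, which 27.4% of interval centres hold. Asz1 had 5 peaks in each group, of which those in both MEF groups only (3 intervals) and those in both reprogramming groups only (3 intervals) lay in different places.

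At Tdrd1, whose Tudor domains bind PIWI proteins, 15 peaks in MEF control and 16 in MEF KO stood against 6 and 7 in reprogramming. It was the only one of the 8 genes with 0 intervals that had a peak in both reprogramming groups and in no MEF group. The peaks kept in all groups included those over the starts of the neighbours Ccdc186 and Vwa2. At Mael there were 4 peaks in each group, none of them within 4 kb of the start, and 1 MEF peak in the gene body with a fold of 2.13 in control and 1.95 in KO.

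Dazl stood apart by an open stretch just inside the gene in every group. The peak (chr17:50291593-50293377) began 345, 334, 259 and 385 bp downstream of the start in the order MEF control, MEF KO, reprogramming control, reprogramming KO. Its folds were 6.06, 5.11, 5.04 and 5.39 in that order, above 93.2%, 85.8%, 88.5% and 91.7% of the peaks of each group. It covers the start of another annotated transcript of Dazl and not that of the gene. Outside the gene, a MEF peak 9359 bp upstream (folds of 3.86 and 3.51) had no counterpart in reprogramming, where a peak stood 15990 bp upstream (3.86 in control and 4.18 in KO).

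Sycp3 was the only gene of the set with more peaks in reprogramming (5 and 5) than in MEFs (3 and 2). Beside the start peak, the interval 14662 bp past the start had folds of 2.60 and 2.10 in the reprogramming groups only. The interval 32606 bp past the start had a fold of 2.53 in MEF control against 4.60 in reprogramming control, and 3.33 with the KO, and was the only interval of the 24 shared by both control groups whose fold was at least 1.5 times higher in reprogramming (9.66% of all such intervals). The fold was at least 1.5 times higher in MEF control for 5 of the 24 (20.8%, against 24.9% of all), 3 of them at Piwil4. Between the KO groups it was that much higher in MEFs for 6 of 21 (28.6%, against 23.8%), 3 of them at Piwil2, and in reprogramming for 0 of 21, against 10.0% of all.

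**Figure D4:**
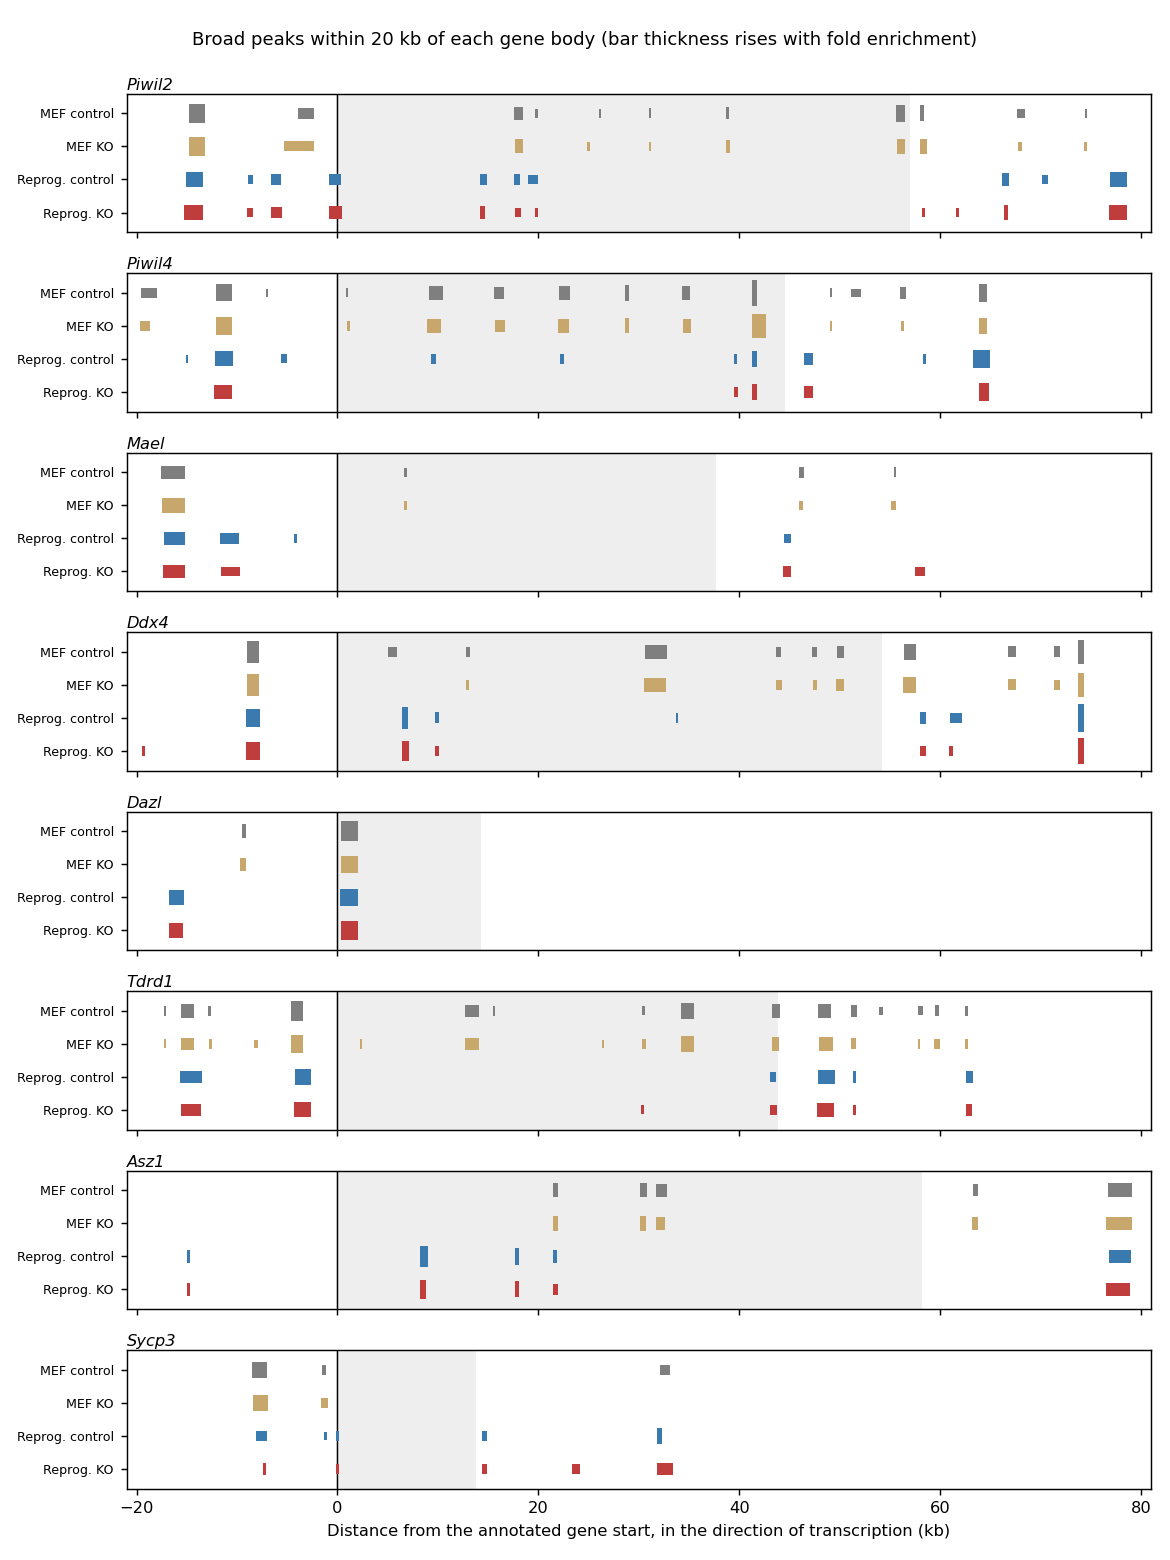
Broad peaks of each group (rows) around the 8 genes, by distance from the annotated gene start in the direction of transcription (kb, horizontal axis); grey shading is the gene body, bar length is the peak and bar thickness rises with its fold. At Piwil2 and Sycp3 bars cross the start line in the reprogramming rows only, at Dazl a bar stands just inside the start in all rows, and at Ddx4 and Asz1 tall bars appear inside the gene in the reprogramming rows only.

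KO and control shared most peaks of the 8 loci. In reprogramming, 6 of 55 intervals (10.9%) had a peak in KO and none in control, against 7.50% of all intervals. Another 9 (16.4%) had a peak in control and none in KO, against 11.0%. In MEFs, 4 of 70 (5.71%) had a peak in KO only and 8 (11.4%) in control only, against 5.77% and 7.57%. Among the intervals with a peak in both groups, 0 of 40 in reprogramming and 0 of 58 in MEFs differed in fold by 1.5 times or more in either direction; over all intervals 0.202% were that much higher and 0.142% that much lower in reprogramming KO, and 0.0840% and 0.102% in MEF KO. At the Piwil2 start the ratio of folds was 1.40, where the ratio of counts was 2.22.

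Other germline genes were counted in the same way. Of 22 further piRNA pathway genes, 8 had a start peak in each MEF group and 9 in each reprogramming group, and 12 (54.5%) had none in any group, against 32.2% of all protein-coding genes. Pnldc1, which trims piRNAs, had a start peak in reprogramming only (2.81 in control and 3.04 in KO), as had Rnf17 (3.22 and 3.43), a Tudor domain gene, which makes 9.09% of the list against 2.63% of all. Spocd1, which directs DNA methylation of transposons, had one in MEFs only (5.00 in control and 4.72 in KO). That makes 4.55% of the list, against 3.11% of all protein-coding genes. Of 22 meiosis genes, 8 (36.4%) had a start peak in each MEF group and 11 (50.0%) in each reprogramming group, below the 62.6% to 63.5% of all protein-coding genes. Those with it in both reprogramming groups only were Sycp2 (2.52 and 2.19) and Hormad2 (2.35 and 2.61), which encode proteins of the chromosome axis, and Rec8 (2.40 and 2.03), a meiotic cohesin, 13.6% of the list against the same 2.63%. Of 16 germ cell factors, 5 (31.2%) had a start peak in each MEF group and 4 (25.0%) in each reprogramming group. Prdm14, a regulator of primordial germ cells, had it in MEFs only (2.46 and 2.35), 6.25% of the list against the same 3.11%.

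Intervals listed as more open in reprogramming KO lay within 20 kb of 3 of the 22 piRNA pathway genes, 0 of the 22 meiosis genes and 2 of the 16 germ cell factors, against 8.14% of all protein-coding genes. None of these genes had one listed as more closed, against 0.369% of all. In MEFs an interval listed as more open lay near 0 of the 22 piRNA pathway genes, 1 of the 22 meiosis genes and 1 of the 16 germ cell factors, against 2.97% of all protein-coding genes, and those shares are given as a description. Near Stk31, a Tudor domain gene, the control libraries averaged 242 ± 18.0 normalised counts and the KO libraries 408 ± 18.8 (SD, n = 3 each). Near Tdrd9, a helicase of the pathway, it was 44.9 ± 15.9 and 94.9 ± 4.44, and near Morc1 9.15 ± 4.01 and 52.0 ± 10.8. Near Tfap2c, a factor of germ cell specification, it was 59.2 ± 6.13 and 116 ± 11.1. The Nanos3 interval was listed in both contexts, at 109 ± 12.6 and 185 ± 12.3 in MEFs and 149 ± 3.59 and 246 ± 29.0 in reprogramming. The Stra8 interval was listed in MEFs alone, at 55.6 ± 10.4 and 105 ± 10.9. In each case all KO libraries lay above all control libraries. These intervals were listed by the authors' test on these same libraries. Neither this separation nor the p-values below are therefore independent evidence. None of these intervals lay over the start of the named gene. The nearest start was that of Rd3l for Tdrd9 and of Trat1, 155884 bp away, for Morc1. The midpoint of the Morc1 interval lay 184724 bp from the Morc1 start. The log2 fold changes were 0.75 (SE 0.08) at Stk31, 1.09 (0.17) at Tdrd9, 2.51 (0.29) at Morc1, 0.95 (0.15) at Tfap2c, 0.75 (0.11) at Nanos3 in MEFs, 0.73 (0.10) at Nanos3 in reprogramming and 0.89 (0.15) at Stra8, with adjusted p-values from 1.17e-13 to 5.33e-06 other than 1.06e-14 at Stk31, by edgeR's quasi-likelihood test. Scaled by TMM over the listed intervals, the direction turned at Stk31, Tfap2c, Nanos3 and Stra8, the call was lost at Tdrd9 (0.12, adjusted p = 1.00 by edgeR), and Morc1 kept its call (1.55, adjusted p = 0.000236). Raw totals of the list also ended the calls at Stk31 (0.04), Tfap2c (0.24), Tdrd9 (0.38) and Nanos3 in reprogramming (0.02), each with an adjusted p of 1.00 by edgeR. With limma and a pseudocount of 1 the adjusted p was 0.394 at Stra8, 0.343 at Nanos3 in MEFs, 0.0840 at Nanos3 in reprogramming and 0.270 at Tdrd9, while the log2 fold changes were 0.91, 0.76, 0.72 and 1.12.

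Marker genes of the cells served as a check. All 12 fibroblast markers had a start peak in both MEF groups and 7 in both reprogramming groups. Of 14 repressors of germline genes, 13 had a start peak in each MEF group, 14 in reprogramming control and 13 in reprogramming KO. Start peaks stood at 3 and 2 of 8 pluripotency markers in MEFs and at 2 and 3 in reprogramming (control and KO), at 5 of 6 epithelial markers in MEFs and 6 in reprogramming, and at 2 of 5 endothelial and 2 of 5 blood markers in every group. Start peaks were found in both reprogramming groups only at Zfp42, a pluripotency marker (8.75 in control and 8.95 in KO), Krt8, an epithelial keratin (2.55 and 2.45), and Itgam, a blood marker (2.76 and 2.63). They were found in both MEF groups only at the fibroblast markers Col1a1 (2.83 and 2.63), Col1a2 (3.03 and 2.85), Pdgfra (1.80 and 2.01), Postn (1.58 and 1.68) and Lum (3.89 and 4.27), at Sall4 (2.59 and 2.56) and at Csf1r, a blood marker (3.11 and 2.92). Their part in the values at the germline genes was not tested. Of all listed intervals, 1522 of 1608 in reprogramming and 479 of 480 in MEFs were more open in KO, and those near a marker or repressor were so too, for reprogramming near Pou5f1, Tdgf1, Sall4, Thy1, Ocln, Tie1 and Setdb1, and for MEFs near Esrrb. In reprogramming these were 1 of 12 fibroblast, 3 of 8 pluripotency, 1 of 6 epithelial, 1 of 5 endothelial and 0 of 5 blood markers and 1 of 14 repressors, against 8.14% of all protein-coding genes. Their log2 fold changes ran from 0.49 at Tie1 to 2.29 at Tdgf1, and TMM over the list turned the direction at Tie1, Sall4, Esrrb and 1 of 2 intervals each of Tdgf1 and Pou5f1. The turned value at Tie1 was itself past the threshold (-0.48, adjusted p = 0.00117 by edgeR). Under the same scaling the calls were lost at Setdb1 (0.37, adjusted p = 1.00), Ocln (0.50, adjusted p = 1.00) and Thy1 (1.05, adjusted p = 0.552). Another gene had the nearest start for the intervals of Setdb1 (Anxa9), Thy1 (Usp2), Ocln (Gtf2h2), Tdgf1 (Lrrc2) and Tie1 (2610528J11Rik). For those of Pou5f1, Sall4 and Esrrb it was the marker itself. The libraries held 33936 to 86490 reads in the intervals listed in MEFs and 141616 to 324141 in those listed in reprogramming, and the size factors ran from 0.630 to 1.46; the full depth of the libraries is not in these tables.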

How the data were processed

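The 12 mouse Omni-ATAC-seq libraries, 3 in each of 4 groups, were grouped by the sample titles. Per the labels and the study's methods, the authors trimmed reads with cutadapt, aligned them with BWA to GRCm38.p6, filtered out mitochondrial reads, blacklisted regions, duplicates and improper pairs with Picard and SAMtools, and ran MACS2 in broad mode once per group, on its pooled replicates. The deposited peak lists give each peak's fold over background (a ratio) and its -log10 q-value, with no spread between replicates. The deposited tables hold raw read counts per library and, as a normalised signal, these counts over the size factors of DESeq2, only for intervals past an FDR of 0.05 in the authors' test. They further hold the authors' own comparison (log2 fold change, its error, statistic and p-values), which was not used.

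Here the 4 peak lists were merged into 273256 intervals, and all 480 MEF and 1608 reprogramming listed intervals were among them. Starts in the tables count from 0 and are printed from 1. The listed intervals of a context were fitted together with edgeR 4.0.16 in R 4.3.3 (quasi-likelihood, two-sided, recovered size factors, no covariate), with Benjamini-Hochberg adjustment over 273256 tests; the p-values measure the spread between these libraries. The script was tested on simulated data. Peaks were assigned by overlap of at least 1 base. Genes came from GENCODE M21, and sequences from RefSeq and the GRCm38 genome, in which 0 of 661623 peaks ran past a chromosome end. An interaction of KO and context was not fitted, since none of the 99 intervals was listed in both tables. All members were described, and of the other lists each gene with a listed interval within 20 kb, or with a start peak in both reprogramming groups only or both MEF groups only; the 5 starts most like Piwil2 were named by distance over log2(count + 1). The genes and lists were chosen with earlier results of these data known. Alternatives were other windows, peak thresholds, scalings, filters, tools, a replicate block and leaving out each library. The sequence of the interval over the Piwil2 start is not reported here.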

Additional observations from a re-analysis of the deposited data

How the results depend on the processing

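The 2 listed intervals of the set kept their direction under all 13 alternatives each and their call under 25 of 26. Without each library in turn the log2 fold change ran from 1.07 to 1.25 at Piwil2 and from -0.81 to -0.67 at the interval of the Mael window, and the replicate block gave 1.16 and -0.72 and changed no call. The replicate numbers were not taken as pairs: same-numbered libraries correlated by 0.0368 to 0.214 in their deviations, with 5 of 6 MEF and 6 of 6 reprogramming libraries nearest to their own number. The exception was scaling by TMM over the listed intervals, which moves the median of the list from 0.99 to 0.02 in reprogramming and from 1.08 to 0.03 in MEFs, since nearly all listed intervals lie on 1 side. Relative to that median Piwil2 had a log2 fold change of 0.19 (adjusted p = 1.00) and Mael of -1.69.

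Of 221 refits at 17 intervals of the other lists, 179 kept direction and call, 26 lost the call and 16 reversed, all of the latter by scaling on the list itself. Under TMM these were Stra8 (-0.15), Nanos3 in MEFs (-0.30) and reprogramming (-0.24), Esrrb (-0.39), Stk31 (-0.22), Tfap2c (-0.02), Pou5f1 (-0.14), Tdgf1 (-0.37), Sall4 (-0.34) and Tie1 (-0.48). Under the raw totals of the list, whose median was 0.29 in reprogramming and 0.18 in MEFs, they were -0.0027 for Stra8, -0.15 for Nanos3 in MEFs, -0.24 for Esrrb, -0.11 for Tdgf1, -0.08 for Sall4 and -0.22 for Tie1. With limma, 8 of the 17 with a pseudocount of 1 were not past the threshold, with log2 fold changes near those of edgeR: Stra8 (0.91), Nanos3 in MEFs (0.76) and reprogramming (0.72), Esrrb (0.64), Tdrd9 (1.12), Tdgf1 (0.61), Sall4 (0.61) and Tie1 (0.50). With 10 there were 5: Stra8 (0.81), Nanos3 in MEFs (0.72), Esrrb (0.59), Tdgf1 (0.57) and Tie1 (0.48). Esrrb lost its call without MEF control replicate 1 (adjusted p = 0.0675 by edgeR) or MEF KO replicate 2 (0.0777).

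Counts of peaks moved with their definition, and the cause was not tested. Members with a peak within 500 bases of the start were 1 in each MEF group, and within 1000 bases 2 in MEF control and 3 in MEF KO; counting the start of any transcript gave 2 in each MEF group and 4 in reprogramming control. With a -log10 q of at least 5 only Piwil2 remained, 1 in each reprogramming group. Peaks in gene bodies alone were 29, 28, 17 and 15 in MEF control, MEF KO, reprogramming control and reprogramming KO, within 5 kb 36, 35, 25 and 22, and within 50 kb 117, 112, 106 and 102. With that q, and the share of all intervals at the same setting in brackets, a peak in KO only was found in MEFs for 2 of 45 (5.99%) and in control only for 2 of 45 (5.74%), or 4 of 64 with gapped peaks (7.17%). In reprogramming it was in KO only for 2 of 37 (5.30%) and in control only for 7 of 37 (9.72%). Of 60 intervals of the controls 25 had a peak in MEFs only (36.6%), and of 57 of the KO groups 14 had it in reprogramming only (34.1%) and 27 in MEFs only (38.2%). At a ratio of folds of at least 2, 1 of 24 was higher in MEF control (8.29%), 0 of 24 in reprogramming control (3.67%) and 1 of 21 in MEF KO against reprogramming KO (7.56%); with folds divided by the median, 3 of 24 were higher in MEF control (19.7%).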
